A study of Mus musculus with 48 samples.

Results

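The levels of 9 genes of neuroendocrine neurons of the arcuate nucleus were followed across 24 arcuate libraries: Kiss1, Tac2, Pdyn, Ghrh, Sst, Gal, Th, Prlr and Esr1. They were chosen by name, as 9 of the 25229 gene symbols in the count table, and all 9 passed the filter on low counts together with the 16102 arcuate genes tested. The arcuate samples were RNA sequencing libraries made from micropunches, each a pool of tissue from 3 mice (3 to 4 by the series text). The labels give every mouse as a male of strain C57Bl/6J, aged 10 to 12 weeks, with Rev-erb α and β fl/fl alleles, fed chow at 27 C in 12 h of light and 12 h of dark. Control mice had received AAV8-TBG-EGFP and HepDKO mice AAV8-TBG-Cre by tail vein at 6 to 10 weeks of age, and tissue was taken 2 to 4 weeks later. TBG is a promoter active in hepatocytes, so Cre was directed at the liver, and whether any Cre acted in the brain was not measured. Libraries were collected at zeitgeber times (ZT, counted in hours from the onset of light) 4, 10, 16 and 22, with 3 libraries in each of 8 groups. The question put to these genes was how their level depended on time and genotype, and how far they moved together from punch pool to punch pool.

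The arcuate nucleus lies at the base of the hypothalamus beside the median eminence, where its neurons release hormones into the portal blood of the pituitary. One population makes kisspeptin (Kiss1), neurokinin B (Tac2) and dynorphin (Pdyn) and drives pulses of gonadotropin-releasing hormone. Another makes growth hormone-releasing hormone (Ghrh), while tuberoinfundibular neurons with tyrosine hydroxylase (Th) release dopamine and restrain prolactin. Somatostatin (Sst) and galanin (Gal) are peptides of several hypothalamic cell groups. The receptors for prolactin (Prlr) and oestrogen (Esr1) let these neurons read circulating hormones.

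The 250 bases before the annotated start are shown for the 3 genes of the kisspeptin population, and for Sst and Th. Among the 9 genes Sst moved most closely with Pdyn, and it shared a full cyclic AMP response element with Th. Sequences are from RefSeq on GRCm38.p6, which matched 9 of the 9 genes with 14 start sites, and run 5′ to 3′ on the gene's strand. Capitals mark matches on either strand to AGGTCA (a half-site of many nuclear receptors, read as TGACCT on the other strand), to TGACG (the core of the cyclic AMP response element, CGTCA on the other strand) and to the full element TGACGTCA, which contains the core on both strands.
Kiss1, chr1:133326962-133327211, plus strand: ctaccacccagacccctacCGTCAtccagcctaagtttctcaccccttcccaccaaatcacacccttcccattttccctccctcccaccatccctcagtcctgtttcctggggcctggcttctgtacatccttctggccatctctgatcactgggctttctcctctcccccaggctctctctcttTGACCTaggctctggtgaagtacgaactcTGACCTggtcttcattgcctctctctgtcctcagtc
Tac2, chr10:127724228-127724477, plus strand: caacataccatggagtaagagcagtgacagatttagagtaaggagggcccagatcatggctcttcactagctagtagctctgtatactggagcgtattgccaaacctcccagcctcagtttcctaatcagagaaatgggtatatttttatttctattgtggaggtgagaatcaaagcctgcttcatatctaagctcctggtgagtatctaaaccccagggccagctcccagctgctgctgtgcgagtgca
Pdyn, chr2:129699939-129700188, minus strand, the first of 2 starts: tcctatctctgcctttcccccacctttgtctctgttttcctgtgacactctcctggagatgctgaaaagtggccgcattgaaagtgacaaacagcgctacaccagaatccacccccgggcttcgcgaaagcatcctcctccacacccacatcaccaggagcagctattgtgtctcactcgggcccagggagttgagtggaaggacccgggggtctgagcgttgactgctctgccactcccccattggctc
Sst, chr16:23890845-23891094, minus strand: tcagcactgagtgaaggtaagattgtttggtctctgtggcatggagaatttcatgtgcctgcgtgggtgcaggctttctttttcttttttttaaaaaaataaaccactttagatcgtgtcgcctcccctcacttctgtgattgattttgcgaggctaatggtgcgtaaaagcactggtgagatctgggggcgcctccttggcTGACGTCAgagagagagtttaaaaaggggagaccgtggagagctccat
Th, chr7:142899996-142900245, minus strand: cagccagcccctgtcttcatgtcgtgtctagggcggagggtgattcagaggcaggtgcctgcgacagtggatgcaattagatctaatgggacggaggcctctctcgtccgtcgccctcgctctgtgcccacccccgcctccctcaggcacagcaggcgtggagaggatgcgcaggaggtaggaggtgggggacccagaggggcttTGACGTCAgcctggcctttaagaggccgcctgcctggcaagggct

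The full element TGACGTCA stood in 2 of the 14 windows, at bases -48 to -41 before the Sst start and -45 to -38 before the Th start, against 1.55% of 32851 mouse windows of this length. Kiss1 held 2 AGGTCA half-sites, at -65 to -60 and -36 to -31, and 1 TGACG core. Half-sites also stood before both Ghrh starts. They were in 3 of the 14 windows, and 14.0% of all windows held at least 1. The core TGACG was found for Kiss1, Ghrh, Sst, Th and Prlr, for Sst and Th within the full element. It stood in 6 of the 14 windows, against 17.8% of all windows, and TATAAA in 1, for Ghrh (12.4% of all). The E-box CACGTG, the site of clock activators, was in none of the 14 windows and in 6.02% of all. Neither the Tac2 window nor either Pdyn window held any of these letters. These are matches of letters only, and whether a factor was bound there was not measured.

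Arcuate libraries held 15483922 to 20399718 counts (median 17324244), so 3 counts, taken as the smallest level a library can show, were at most 0.199 CPM (a gene's counts relative to the TMM-scaled library size). Of the libraries, 3 stood apart or went against a label. HepDKO ZT4 replicate 3 had a coordinate of 0.72 on the first principal component (14.0% of the variance), and Control ZT22 replicate 1 one of 0.65 on the second (12.0%). HepDKO ZT10 replicate 3 held 1914 counts of Xist, the RNA of the inactive X chromosome, against a median of 2 counts over the 24 libraries, which goes against the label of male mice. Several results below are also given without them. Nr1d1, the gene of REV-ERB α, ranged from 33.8 to 67.6 CPM, and Nr1d2, the gene of REV-ERB β, from 98.1 to 156 CPM. Liver was not analysed here, so the libraries hold no check of the deletion.

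Sst was the most abundant of the 9 genes and Esr1 the least when counts were divided by exon length. The median level over 24 libraries was 195 CPM per kb for Sst, 56.9 for Gal, 33.2 for Pdyn, 21.4 for Tac2, 16.7 for Th, 13.6 for Ghrh, 3.66 for Prlr, 2.33 for Kiss1 and 1.61 for Esr1. Each gene was above the next in 21 to 24 of the 24 libraries, and the closest neighbours were Th over Ghrh (median ratio 1.23, 22 libraries) and Tac2 over Th (1.28, 21 libraries). The ranges of those neighbours overlapped between libraries. The long exon models of Prlr (15339 bases) and Esr1 (13661 bases) sum over several transcripts, so their values per kb depend on the annotation.

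The punches held arcuate neurons and neurons of neighbouring nuclei. Agrp, the orexigenic peptide made in the brain almost only by arcuate neurons, had a median of 16.7 CPM per kb, and Pomc, the precursor of melanocortins, 50.5. Pmch and Hcrt, peptides of the lateral hypothalamus, reached medians of 157 and 138 CPM per kb, above 8 of the 9 genes. Avp and Oxt, of the paraventricular and supraoptic nuclei, had medians of 269 and 148 and ranged from 8.86 to 807 and from 24.7 to 605 CPM per kb. Hdc, the histamine enzyme of the tuberomammillary nucleus, ranged from 4.94 to 19.4 CPM per kb. The summed level of 3 telencephalic markers was 2.29 to 4.64 CPM. Of 6 markers of the pituitary, Prl and Gh, its most abundant hormones, had medians of 0 and maxima of 0.29 and 1.45 CPM. The other 4 were detected in all 24 libraries, among them Cga, the common subunit of its glycoprotein hormones, at a median of 9.28 CPM (4.51 to 14.7), and Lhb and Tshb at medians of 1.09 and 1.08 CPM. The summed level of the 6 was 10.5 to 20.8 CPM in Control and 8.38 to 21.04 CPM in HepDKO, and none of the 9 genes followed their score past the threshold.

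**Figure D1:**
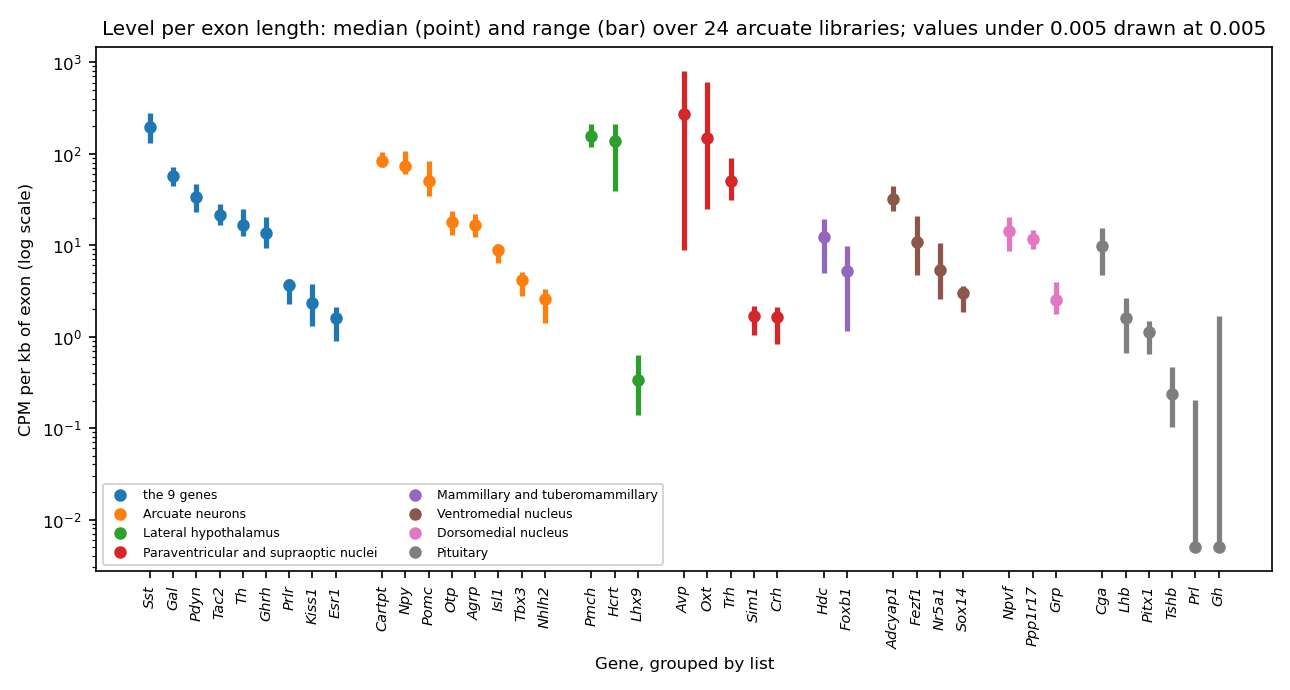
Median level (point) and range (bar) over 24 arcuate libraries in CPM per kb of exon on a log axis, for the 9 genes and for named marker genes of the arcuate and neighbouring nuclei and of the pituitary. Sst (195) lies near Pmch (157) and Hcrt (138), and the bars of Avp and Oxt are longer than those of the 9 genes.

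Among the 3 genes of the kisspeptin population, Kiss1 was the scarcest, with 17 to 55 counts per library (1.01 to 2.91 CPM). Its within-group SD was 0.48 on the log2 scale, where counting alone would give an SD of 0.25, and its biological coefficient of variation (26.1%) was above that of 93.6% of the genes tested. Kiss1 also overlaps Golt1a (2 to 13 counts) and a joined gene model, Gm28040, on the same strand. Gm28040 has no row in the count table used here, so whether reads of Kiss1 were shared with it or set aside cannot be seen, and their assignment is uncertain. Tac2 ranged from 22.9 to 39.1 CPM and Pdyn from 66.2 to 134 CPM, with within-group SDs of 0.20 and 0.23 (log2). In Control the group means of Tac2 were 29.5, 30.0, 28.5 and 27.5 CPM at ZT4, 10, 16 and 22, and in HepDKO they were 33.3, 30.4, 28.0 and 27.6 CPM, with SDs from 1.27 to 5.06 CPM (n = 3 each). Pdyn was both lowest and highest in Control ZT22, where its 3 libraries held 66.2, 134 and 95.2 CPM, around the HepDKO values of 90.3, 76.9 and 82.7 CPM. The groups overlapped at every time for Kiss1, Tac2 and Pdyn.

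In the growth hormone axis, Ghrh, the releasing hormone, ranged from 6.29 to 13.7 CPM and Sst, the release-inhibiting peptide, from 93.4 to 199 CPM. At ZT10 Ghrh stood at 7.75, 9.53 and 8.25 CPM in Control and at 7.82, 13.7 and 13.4 CPM in HepDKO. Of the HepDKO libraries, 2 were above every Control library and 1 was not. Gal ranged from 34.8 to 56.3 CPM, and at ZT10 it was 37.4, 48.9 and 45.8 CPM in Control and 48.7, 55.8 and 52.8 CPM in HepDKO. Those Gal groups overlapped by a narrow margin, the lowest HepDKO library lying just under the highest Control library.

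Th, the rate-limiting enzyme of dopamine synthesis, ranged from 30.1 to 58.5 CPM. At ZT22 the Control libraries held 58.5, 46.0 and 41.4 CPM and the HepDKO libraries 36.5, 34.3 and 38.1 CPM. The groups did not overlap, and the highest value of all 24 libraries came from Control ZT22 replicate 1. Prlr was the steadiest of the 9 genes (biological coefficient of variation 9.95%), at 34.9 to 65.2 CPM. Even so, 59.3% of the genes tested had a lower coefficient. It shares its strand and 23801 bases of its span with the model Gm21973, which has no row in that table either, so its read assignment is uncertain too. At ZT4 Prlr was 59.8, 64.1 and 49.8 CPM in Control and 51.6, 51.6 and 34.9 CPM in HepDKO. Esr1 ranged from 12.1 to 28.8 CPM, and at ZT4 it was 21.6, 22.7 and 19.8 CPM in Control and 19.0, 19.6 and 12.1 CPM in HepDKO. The Esr1 groups lay apart there by as narrow a margin (19.64 against 19.78 CPM), the Prlr groups overlapped, and HepDKO ZT4 replicate 3 was the lowest of all 24 libraries for both receptors.

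**Figure D2:**
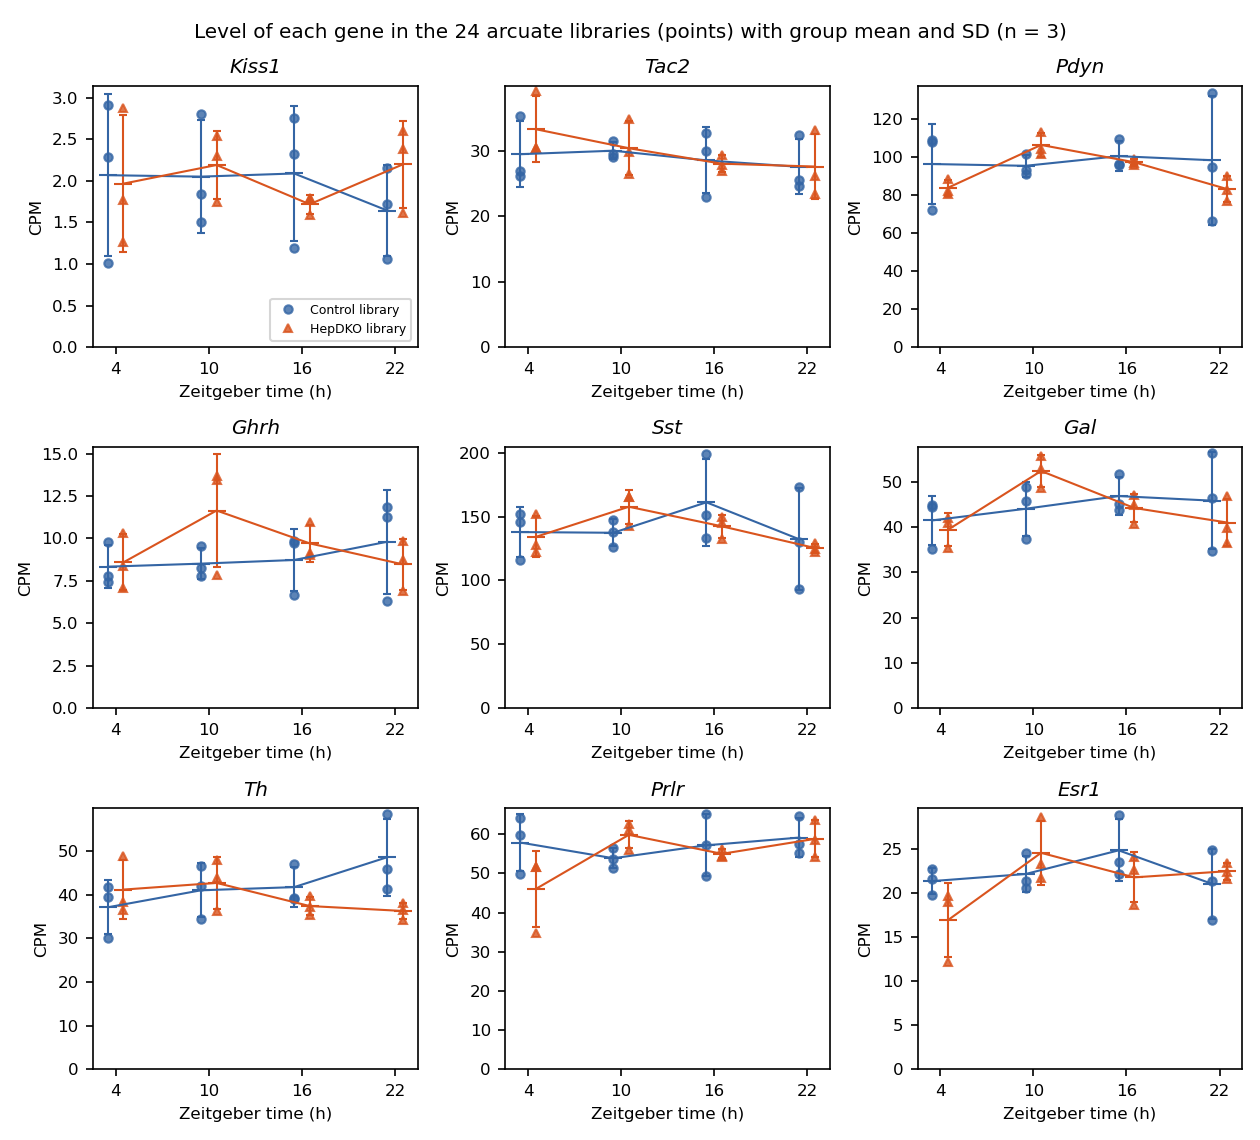
Level of each gene in CPM (axis from 0) against zeitgeber time in hours, 1 point per library, with the mean and SD of each group of 3. The Control and HepDKO points overlap in all panels and times except Esr1 at ZT4 and Th at ZT22.

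None of the 9 genes differed between genotypes in any comparison by the quasi-likelihood test of edgeR, adjusted over all genes tested by the Benjamini-Hochberg method. The background was the same: averaged over the 4 times, 0% of 16102 genes passed (1387 had an unadjusted p under 0.05, 8.61%, and DESeq2 called 23, none of them among the 9). The averaged log2 fold changes of HepDKO over Control ran from -0.09 for Th to 0.11 for Ghrh, with 3 of 9 above 0 and a median of -0.02, beside a median of -0.0040 over all genes (n = 12 libraries per genotype). Without the 3 libraries named above all 9 were below 0, from -0.16 for Pdyn to -0.0025 for Tac2. The 95% intervals were narrowest for Prlr (-0.18 to 0.06) and widest for Kiss1 (-0.33 to 0.42), so a Kiss1 change of that size was not detectable at this depth and spread. In bulk tissue fewer cells of a type and less RNA per cell cannot be told apart. The p-values measure the spread between pooled libraries.

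At single times the 2 groups of 3 were apart in 2 of 36 cases, Esr1 at ZT4 and Th at ZT22, both lower in HepDKO. Over all genes 12.8% lay apart at ZT4 (6.76% higher and 6.09% lower in HepDKO), 11.3% at ZT10 (5.71% and 5.54%), 9.51% at ZT16 (4.72% and 4.79%) and 8.52% at ZT22 (4.15% and 4.37%), so 2 of 36 was below the background. At ZT4 0% of genes passed the adjusted threshold, while 11.9% had an unadjusted p under 0.05 and DESeq2 called 21. At ZT10, ZT16 and ZT22 edgeR and DESeq2 both called 0 genes, and edgeR gave 377, 440 and 599 genes an unadjusted p under 0.05 (2.34%, 2.73% and 3.72%).

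Th at ZT22 differed by -0.42 (log2, SE 0.147, unadjusted p = 0.00895, adjusted p = 1.00 by edgeR). Without Control ZT22 replicate 1 the difference was -0.27 (unadjusted p = 0.0861). That library also had the highest summed oligodendrocyte markers (5363 CPM) and pan-neuronal markers (2409 CPM) of the 24, and the part of tissue composition in the Th difference was not tested. At ZT4 Prlr differed by -0.33 (SE 0.120, unadjusted p = 0.0110, adjusted p = 0.347 by edgeR) and Esr1 by -0.34 (SE 0.157, unadjusted p = 0.0433, adjusted p = 0.404 by edgeR). Without HepDKO ZT4 replicate 3 these became -0.17 and -0.14 (unadjusted p = 0.102 and 0.309). The same library had the lowest astrocyte sum (724 CPM, against 1040 to 1198 CPM in Control) and the highest ventromedial sum (229 CPM) of the 24. Its choroid plexus (29.7 CPM), microglia (101 CPM) and lateral hypothalamus (132 CPM) sums were also the lowest of the 24. The part of those cell types in the receptor difference was not tested.

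At ZT10 all 9 estimates were above 0, from 0.02 for Tac2 to 0.45 for Ghrh, with a median of 0.15 beside 0.00 for all genes. At ZT16 1 of 9 was above 0 (Ghrh, 0.16). None passed the test, the 9 genes were measured in the same libraries, and without the 3 libraries named above Th was below 0 at ZT10 (-0.04). Of the 18 marker lists, several lay mostly on 1 side of 0 at ZT10 and others were mixed, with 0 genes called in any. Arcuate neuron markers were above 0 in 7 of 8 (median 0.13), dorsomedial in 3 of 3 (0.23), suprachiasmatic in 4 of 5 (0.29), ependymal in 3 of 3 (0.10), tanycyte in 4 of 5 (0.13) and choroid plexus in 2 of 2 (1.53). The 2 choroid plexus genes were at 0.16 and 2.89, and the suprachiasmatic genes ran from -0.45 to 2.03. Mammillary markers were above 0 in 0 of 3 (median -0.60), telencephalic in 0 of 3 (-0.16), pan-neuronal in 0 of 4 (-0.06) and oligodendrocyte in 0 of 5 (-0.09). Lateral hypothalamic (-0.16), endothelial (-0.15) and meningeal (-0.28) markers were each above 0 in 1 of 3, and astrocyte in 2 of 3 (0.02). Ventromedial (0.05), microglial (0.02) and pituitary (0.18) markers were each above 0 in 3 of 4, and paraventricular and supraoptic in 4 of 5 (0.02). The part of tissue composition in the shared sign of the 9 genes was not tested. Ghrh at ZT10 had an interval of -0.01 to 0.91 (unadjusted p = 0.0569, adjusted p = 0.999 by edgeR). It was 0.67 without HepDKO ZT10 replicate 1 (unadjusted p = 0.00456), 0.31 without replicate 2 (unadjusted p = 0.220) and 0.33 without the 3 libraries, of which replicate 3 is one (unadjusted p = 0.104). At ZT22 leaving out the 3 libraries moved Pdyn from -0.24 to -0.46, Ghrh from -0.21 to -0.45 and Gal from -0.16 to -0.33 (unadjusted p = 0.0120, 0.0335 and 0.0370), and none passed the adjusted threshold. Of the 3, only Control ZT22 replicate 1 is from ZT22. Leaving it out alone gave the same -0.46, -0.45 and -0.33 (unadjusted p = 0.00342, 0.0467 and 0.0163 by edgeR). Leaving out Control ZT22 replicate 2 moved them the other way, to 0.04 for Pdyn, -0.05 for Ghrh and 0.01 for Gal (unadjusted p = 0.755, 0.843 and 0.933).

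**Figure D3:**
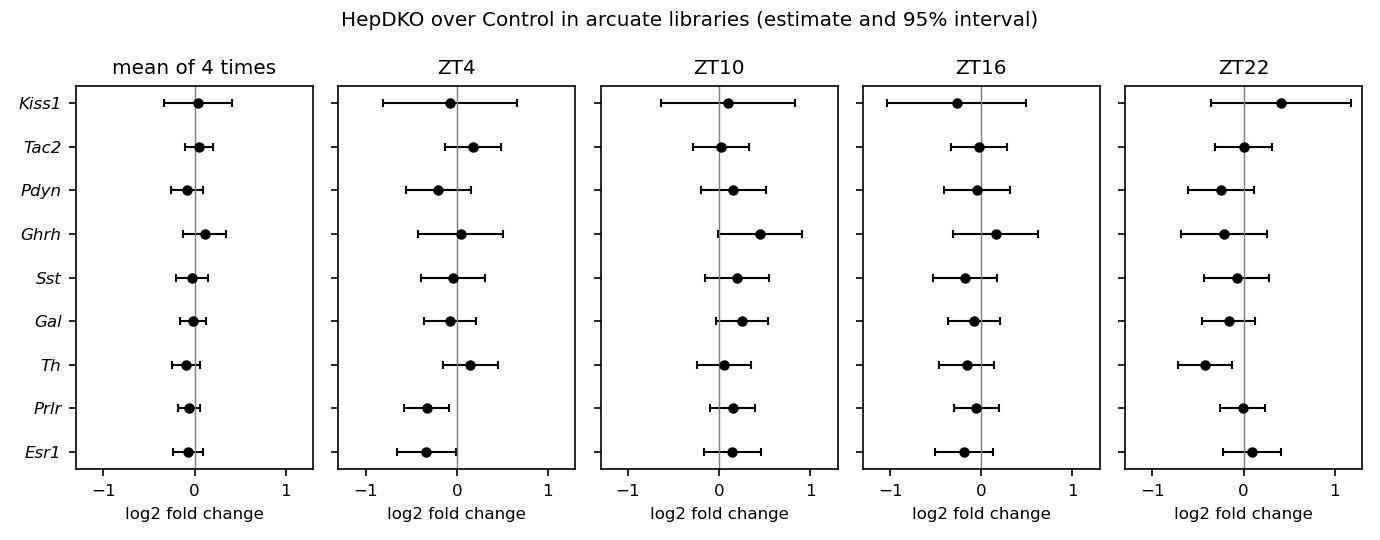
Log2 fold change of HepDKO over Control with 95% interval for each gene, averaged over the 4 times and at each time. The intervals that exclude 0 are Prlr and Esr1 at ZT4 and Th at ZT22, none of which passed the adjusted threshold.

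The 24-h rhythm was tested on both genotypes together, and none of the 9 genes passed, beside 3.86% of all genes (622 of 16102, and 21.6% with an unadjusted p under 0.05). Amplitudes, from mean to peak on the log2 scale, ran from 0.01 for Th to 0.15 for Esr1, with a median of 0.10 beside 0.07 for all genes. Esr1 had the lowest p, with its fitted peak at ZT14.8 (unadjusted p = 0.0347, adjusted p = 0.195 by edgeR). Fitted peaks of Pdyn, Ghrh, Sst and Gal lay between ZT12.6 and ZT13.3, at amplitudes of 0.09 to 0.12 that the test did not separate from none. Without Control ZT22 replicate 2 the amplitude was 0.16 for Pdyn (unadjusted p = 0.00762, adjusted p = 0.0906 by edgeR), 0.18 for Sst and 0.15 for Gal (unadjusted p = 0.00993 and 0.0124), and without HepDKO ZT10 replicate 1 it was 0.13 for Ghrh. Without Control ZT22 replicate 1 the 4 amplitudes were 0.06 to 0.09. The amplitude of Kiss1 (0.09) ran from 0.05 to 0.15 and that of Prlr (0.07) from 0.03 to 0.09 with 1 library left out, the lowest being without Control ZT10 replicate 3 and HepDKO ZT4 replicate 3. That of Th (0.0081) ran from 0.0043 to 0.041, the highest being without HepDKO ZT4 replicate 1. The rhythm differed between genotypes in 0% of genes (382 had an unadjusted p under 0.05, 2.37%, and DESeq2 called 1), and among the 9 Th had the lowest p (unadjusted p = 0.0390, adjusted p = 0.999 by edgeR). With 4 times 6 h apart only a smooth daily wave could be seen.

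Among other tested genes of these axes, 4 passed the rhythm test, which 3.86% of all genes passed, and 0 the genotype tests, which 0% of all genes passed. In the reproductive axis 1 of 9 passed, Tacr3, the receptor of neurokinin B (amplitude 0.18, peak ZT17.9, adjusted p = 0.0152 by edgeR). In the growth hormone axis 1 of 11 passed, Ghr, the growth hormone receptor (0.15, peak ZT14.5, adjusted p = 0.0262 by edgeR). Of 11 tested genes of dopamine and prolactin signalling 1 passed, Stat5a, which carries the signal of the prolactin receptor (0.28, peak ZT5.87, adjusted p = 0.0413 by edgeR). Of 11 genes of peptide processing 1 passed, Vgf, a granule protein (0.23, peak ZT17.5, adjusted p = 0.00235 by edgeR), and of 3 tested galanin receptors 0 passed. The Ghr call was lost in 4 of 24 fits that left out 1 library and the Stat5a call in 16. Without the 3 libraries named above all 4 passed. The averaged genotype medians of the 5 lists ran from -0.07 for the galanin receptors to 0.00 for dopamine and prolactin signalling, and the lowest adjusted p among them was 0.410, for Scg3.

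Co-variation was measured on deviations of log2 CPM from the mean of each library's own group, so that time and genotype could not enter, over 24 libraries. In all 198 relations were computed, 36 between the 9 genes and 162 with scores of 18 marker lists, with 100000 permutations within groups and Benjamini-Hochberg adjustment over the 198. Of the 36 pairs 28 had a positive r and 2 passed. Pdyn and Sst moved together most closely, with r = 0.89 (permutation p = 3e-05, adjusted p = 0.00594) and rho = 0.87 (permutation p = 5e-05, adjusted p = 0.0099). Their r was 0.92 within Control and 0.65 within HepDKO, 0.75 without the 2 libraries farthest on Pdyn, and 0.81 without the 3 libraries named above (adjusted p = 0.0462). Prlr and Esr1 followed, with r = 0.82 (permutation p = 0.00013, adjusted p = 0.00858) and rho = 0.80 (permutation p = 0.00012, adjusted p = 0.0119). Their r was 0.73 within Control and 0.88 within HepDKO, and 0.74 without the 2 farthest libraries. Without the 3 libraries it was 0.68 and no longer passed (adjusted p = 0.0667).

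Of the 3 pairs within the kisspeptin population none passed on deviations from group means. Kiss1 and Tac2 had r = 0.60 (permutation p = 0.0245, adjusted p = 0.156) and rho = 0.63 (permutation p = 0.0129, adjusted p = 0.103), and r was 0.50 without the 2 farthest libraries, 0.56 in Control and 0.70 in HepDKO. Kiss1 and Pdyn had r = 0.18 (permutation p = 0.561, adjusted p = 0.760) and rho = 0.04 (permutation p = 0.898, adjusted p = 0.956), with 0.42 without the 2 farthest libraries, 0.13 in Control and 0.55 in HepDKO. Tac2 and Pdyn had r = -0.26 (permutation p = 0.372, adjusted p = 0.640) and rho = -0.32 (permutation p = 0.246, adjusted p = 0.493), with -0.13, -0.36 and -0.03 in the same order. Without the 3 libraries named above r was 0.50 for Kiss1 and Tac2 (adjusted p = 0.401), -0.16 for Kiss1 and Pdyn (adjusted p = 0.870) and -0.71 for Tac2 and Pdyn (adjusted p = 0.118). Without Control ZT22 replicate 1 alone the r of Tac2 and Pdyn was -0.59. On deviations from the mean over all libraries, into which time and genotype enter, Kiss1 and Tac2 passed (r = 0.53, adjusted p = 0.0384). Ranked by r with Kiss1 among 16101 genes, Tac2 stood at place 162 and Pdyn at place 4591.

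For several of the 9 genes, libraries of 1 replicate number deviated alike at all times of a genotype, so the 24 deviations may not be independent and the permutation p-values above and below may be too small. In Control, Kiss1 was below its group mean in replicate 1 at 4 of 4 times and above it in replicate 3 at 4 of 4, and Tac2 and Ghrh were below in replicate 1 at 4 of 4. Th was above in replicate 1 and below in replicate 3 at 4 of 4 times, and Ghrh, Gal, Prlr and Esr1 were above in replicate 2 at 4 of 4. Tac2 was above in replicate 3 at 4 of 4 times. In HepDKO, Gal was below in replicate 1 and above in replicate 3 at 4 of 4 times, and Tac2 was below in replicate 2 at 4 of 4. How many of all genes show such runs was not counted. The replicate number accounted for 82.5% of the squared deviations of Kiss1 in Control, 77.3% for Tac2, 68.0% for Th, 67.6% for Esr1, 66.8% for Ghrh, 61.7% for Prlr, 53.2% for Gal, 27.0% for Pdyn and 23.9% for Sst, beside a median of 22.1% over all genes. In HepDKO these shares ran from 6.20% for Esr1 to 51.5% for Gal, beside a median of 23.02%. The percentage of all genes with a share at least as high ran from 0.58% (Kiss1) to 47.0% (Sst) in Control. In HepDKO it ran from 10.8% (Gal) to 86.6% (Esr1), with 39.6% for Tac2. What a number stands for is not given in the labels, and its part in these relations was not tested. With the mean of each number within its genotype also taken out, a measure added after seeing the data and given with no test, r was 0.88 for Pdyn and Sst and was 0.78 for Prlr and Esr1, where it was 0.94 in HepDKO and 0.23 in Control. It was 0.36 for Kiss1 and Tac2 (-0.07 in Control and 0.58 in HepDKO), -0.01 for Kiss1 and Pdyn and -0.32 for Tac2 and Pdyn.

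**Figure D4:**
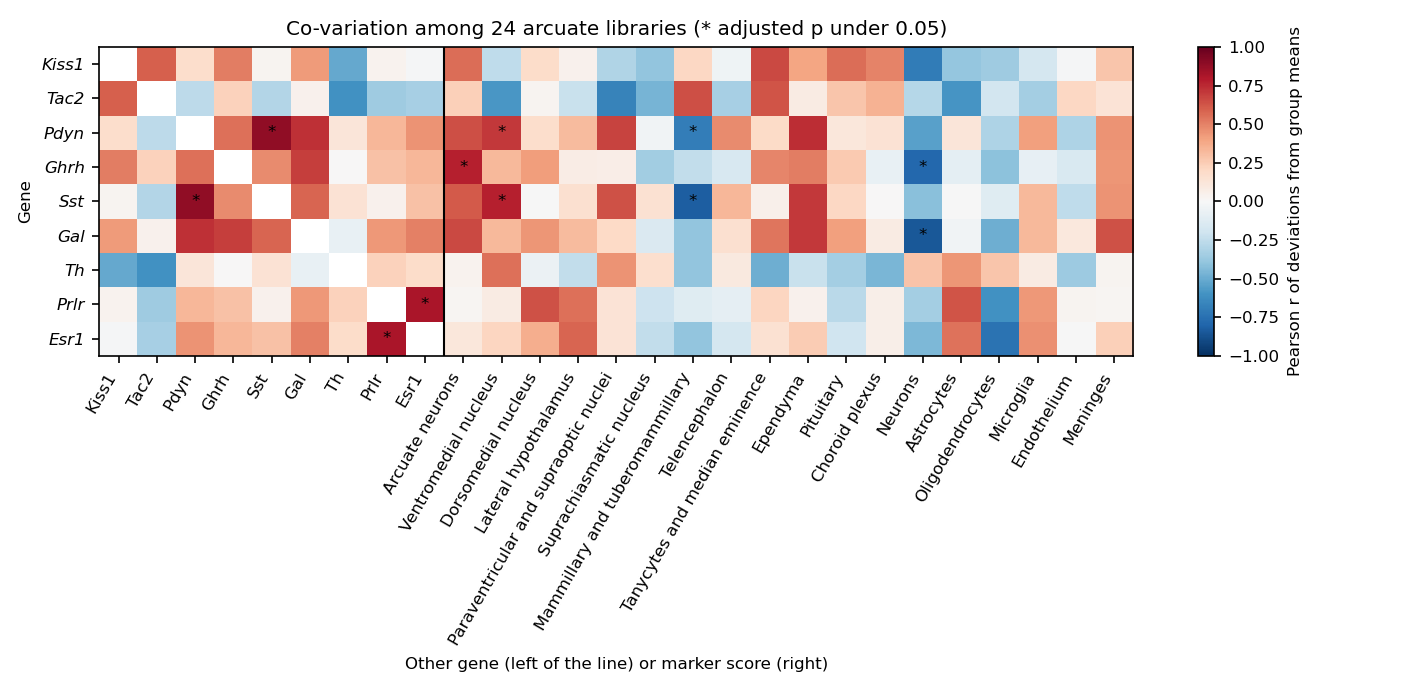
Pearson r of deviations from group means between each of the 9 genes and the other 8 (left of the line, own cells blank) and 18 marker scores (right), over 24 arcuate libraries, with asterisks where the adjusted p was under 0.05. Asterisks mark 2 of 36 pairs and 7 of 162 relations with a score.

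Of the 162 relations with marker scores 7 passed by r, and 11 by rho, of which 6 passed by both. By r, leaving out 1 library lost the call of Ghrh with the pan-neuronal score in 10 of 24 fits. The call of Pdyn with the ventromedial score was lost in 6 and of Ghrh with the arcuate score in 3. The other calls by r were lost in 0. Sst rose with the ventromedial score, r = 0.78 (permutation p = 0.00032, adjusted p = 0.0099) and rho = 0.85 (permutation p = 0.00019, adjusted p = 0.0119), with 0.77 without the 2 farthest libraries, 0.82 in Control and 0.71 in HepDKO. Sst fell as the mammillary and tuberomammillary score rose, r = -0.83 (permutation p = 0.00035, adjusted p = 0.0099) and rho = -0.83 (permutation p = 0.00036, adjusted p = 0.0142), with -0.79, -0.89 and -0.55 in that order. Pdyn showed the same pair of relations, with r = 0.71 (permutation p = 0.00105, adjusted p = 0.0260) and rho = 0.77 (permutation p = 0.00054, adjusted p = 0.0146) for the ventromedial score, and r = -0.69 (permutation p = 0.00013, adjusted p = 0.00858) and rho = -0.84 (permutation p = 0.00024, adjusted p = 0.0119) for the mammillary score. The ventromedial r of Pdyn was 0.65 without the 2 farthest libraries, 0.80 in Control and 0.52 in HepDKO, and the mammillary r was -0.80, -0.73 and -0.58. That score includes Foxb1, of the mammillary region behind the arcuate nucleus, and Hdc, and libraries in which it was higher held less Sst and Pdyn.

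Ghrh followed the score of arcuate neurons, r = 0.78 (permutation p = 0.00024, adjusted p = 0.0099) and rho = 0.79 (permutation p = 0.00043, adjusted p = 0.0142), with 0.74 without the 2 farthest libraries, 0.85 in Control and 0.72 in HepDKO. Ghrh and Gal both fell as the score of pan-neuronal markers rose. For Gal r was -0.85 (permutation p = 0.00025, adjusted p = 0.0099) and rho -0.78 (permutation p = 0.00059, adjusted p = 0.0146), with -0.75, -0.80 and -0.98 in that order. For Ghrh r was -0.79 (permutation p = 0.00171, adjusted p = 0.0376) and rho -0.72 (permutation p = 0.00369, adjusted p = 0.0522), with -0.69, -0.93 and -0.59. On total counts without TMM scaling these 2 relations were weaker and did not pass, at -0.54 for Gal (adjusted p = 0.253) and -0.58 for Ghrh (adjusted p = 0.186). The pan-neuronal score varied little, with a within-group SD of 0.06 against 0.55 for the mammillary score. Without the 3 libraries named above none of these 7 relations passed, at r of 0.85 and -0.89 for Sst, 0.79 and -0.67 for Pdyn, 0.67 and -0.67 for Ghrh and -0.75 for Gal, with adjusted p from 0.0665 to 0.118. With the mean of each replicate number taken out, the r of these relations were 0.75 and -0.81 for Sst, 0.76 and -0.72 for Pdyn, 0.72 and -0.55 for Ghrh and -0.75 for Gal, in the same order. Without the 3 libraries fewer permutations within groups were possible, so those adjusted p-values also reflect a smaller test. There both r of Sst and the ventromedial r of Pdyn lay farther from 0 than with all libraries, and the others nearer.

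No relation of Kiss1, Tac2, Th, Prlr or Esr1 with a score passed by r, and 3 passed by rho alone. Esr1 and the oligodendrocyte score had r = -0.74 (permutation p = 0.00399, adjusted p = 0.0553) and rho = -0.82 (permutation p = 0.00091, adjusted p = 0.0190), with r of -0.68 without the 2 farthest libraries, -0.80 in Control and -0.76 in HepDKO. Kiss1 and the choroid plexus score had r = 0.50 (permutation p = 0.00349, adjusted p = 0.0532) and rho = 0.62 (permutation p = 0.00215, adjusted p = 0.0352), with 0.52, 0.83 and 0.22 in that order. Kiss1 with the score of tanycytes, the glia lining the floor of the ventricle beside the arcuate nucleus, was the other (adjusted p = 0.0553 for r = 0.66 and 0.0352 for rho). With the mean of each replicate number taken out, r of Kiss1 was 0.40 with the tanycyte score and 0.48 with the choroid plexus score. That of Esr1 with the oligodendrocyte score was -0.70. The choroid plexus also makes Prlr, and its score had r = 0.06 with Prlr (permutation p = 0.694, adjusted p = 0.870) and rho = 0.20 (permutation p = 0.357, adjusted p = 0.594). Sst with the paraventricular and supraoptic score (r = 0.63, permutation p = 0.00784, adjusted p = 0.0776; rho = 0.73, permutation p = 0.00096, adjusted p = 0.0190) and Pdyn with the ependymal score (r = 0.74, permutation p = 0.00331, adjusted p = 0.0532; rho = 0.65, permutation p = 0.00211, adjusted p = 0.0352) also passed by rho alone. The second rested in part on Control ZT22 replicates 1 and 2, without which r was 0.43, and the first was 0.54 without its 2 farthest libraries. None of the 18 scores differed between genotypes, and 1 differed between times, that of endothelium (permutation p = 6e-05, adjusted p = 0.00108), which no member followed past the threshold. Where each punch fell was not recorded in the labels, and its part in these relations was not tested.

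**Figure D5:**
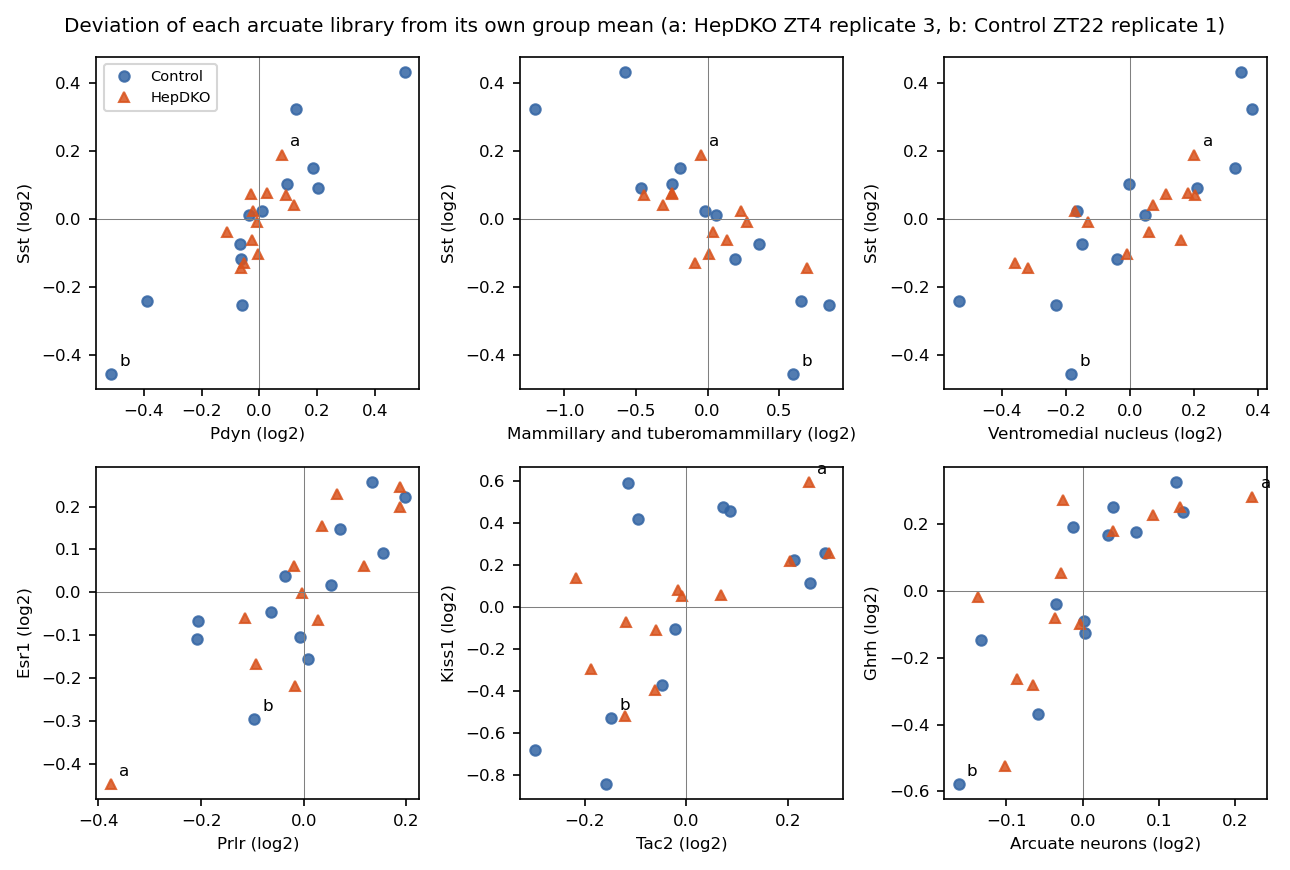
Deviation of each of 24 arcuate libraries from its own group mean (log2) for 6 relations, with Control as circles and HepDKO as triangles. Sst follows Pdyn (r = 0.89) and falls along the mammillary score (r = -0.83), and the library marked a (HepDKO ZT4 replicate 3) lies at the low end of Prlr and Esr1.

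Over all genes tested, the nearest to each of the 9 by r over the same 24 deviations are given, 3 for each but Gal, as a description. Sst was nearest to Camkv (0.92), Tmem158 (0.92) and Gm867 (0.90), and Pdyn to Sst (0.89), Itm2c (0.87) and Otp (0.87), a transcription factor of hypothalamic neurons that is itself in the arcuate list. Prlr was nearest to Sft2d2 (0.91), Bcl2 (0.89) and D430019H16Rik (0.88), and Esr1 to Hpcal4 (0.89), Rap2a (0.88) and Chst11 (0.88). Ghrh was nearest to Esyt3 (0.88), Cfap44 (0.82) and Rimbp2 (0.81), and Gal to Usp11 (0.86) and Ecel1 (0.86). For Th these were Slc24a4 (0.82), Tm7sf3 (0.79) and Lcorl (0.79), for Tac2 S100a10 (0.79), Mcrip1 (0.77) and Zap70 (0.77), and for Kiss1 C230072F16Rik (0.79), Stat5a (0.78) and Hmgn1 (0.78). None of the kisspeptin trio was among the 3 nearest of another.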

How the data were processed

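Per the labels, arcuate and nodose RNA was sequenced in 48 libraries. The authors deposited raw counts per gene symbol in 1 table for all libraries. Per the submitters' processing notes the build was mm10, with FastQC 0.11.7, Trim Galore 0.6.10 and STAR 2.7.10b, and the counting tool and annotation are not given in the sources used here. The 24 arcuate columns were fitted with edgeR 4.0.16 (R 4.3.3): filterByExpr on 8 groups, TMM scaling, a robust quasi-likelihood fit with 1 mean per group, and Benjamini-Hochberg adjustment over 16102 genes at 0.05. Contrasts were HepDKO minus Control, averaged and at each time, the 24-h rhythm averaged over genotypes (2 degrees of freedom) and its difference between genotypes. Log2 CPM for co-variation used a prior count of 2. Marker scores are the mean log2 CPM of a list's genes that passed the filter. Exon lengths and positions came from GENCODE M21 (GRCm38).

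The 9 genes, the lists and the tests were chosen with earlier results of these data known. Named genes are the 9, those of the lists, Nr1d1, Nr1d2, Xist and the 3 nearest to each of the 9 by r, of which 1 near Gal, like 1 marker gene of a list, is not reported here. No 2 replicates agreed within sampling noise (smallest chi-square per degree of freedom 2.89), and 0 columns lacked a sample. Replicate numbers were not taken to pair the genotypes (see the closing section). The scripts were tested on simulated data. Alternatives were RLE factors, no filter, DESeq2 1.42.0, a replicate block, single time points alone, any difference among times, total-count CPM, deviations from the overall mean and leaving out each library, and, chosen after seeing the data, leaving out 3 libraries together and taking out the replicate number within each genotype. Counts of 3 as a floor cover counting error only.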

Additional observations from a re-analysis of the deposited data

Results flagged for a closer look

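Esr1 and Prlr were also detected outside the arcuate libraries. In the 24 left nodose libraries, which the comparisons above do not use, Esr1 had a median of 22.5 CPM (8.82 to 40.1, with 16 to 418 counts) and Prlr a median of 3.10 CPM (0.60 to 6.58, with 4 to 41 counts). Both exceeded 3 counts in 24 of 24 libraries, the level taken as the limit that a count of 0 allows. Kiss1 was at 0 counts in all 24, which allows up to 1.65 CPM in the shallowest library. Gal exceeded 3 counts in 5 libraries and Sst in 1, and Tac2, Pdyn, Ghrh and Th exceeded 3 counts in none. Nodose libraries were shallower (1813994 to 10422914 counts) and were prepared differently per the labels, so no fold between the tissues is given.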

How the results depend on the processing

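Counts of genes past the threshold moved with the tool and with single libraries, and no count of the 9 moved from 0. DESeq2 called 23 genes for the averaged genotype difference, 21 at ZT4, 1117 for the rhythm and 1 for its difference between genotypes; at ZT10 a fit on those 6 libraries alone called 4; and without the 3 libraries that stood apart the rhythm called 1322. Leaving out 1 library gave 0 to 7 (averaged), 0 to 3 (ZT4), 0 to 5 (ZT22) and 287 to 1031 (rhythm), with the low end without HepDKO ZT16 replicate 2 and the high end without HepDKO ZT4 replicate 2. Pairs of genes past the threshold were 2 to 6 with 1 library left out and 8 on deviations from the overall mean. Relations with scores were 4 to 14, 30 on the overall mean, 11 on total counts and 2 without the 3 libraries. The cause was not tested.

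With a replicate block the rhythm called 677 genes against 622, and the other 6 comparisons 0. With the block within each genotype, chosen after seeing the data, the rhythm called 611 and its difference 0. Across genotypes, same-numbered libraries of 1 time had r of -0.13 to 0.08 over all genes (0 of 12 over 0.1). The numbers were therefore not taken to pair the genotypes. Still, 16 of 24 libraries lay closest to their own number among 3, more than unrelated numbers would give on average, so a weak pairing cannot be set aside. Across times, r over 0.1 was found in 5 of 18 same-numbered pairs in Control and 0 of 18 in HepDKO (medians 0.03 and 0.02), beside 4 of 36 and 0 of 36 pairs of other numbers (medians -0.02 and -0.0088, highest 0.17 and 0.089).

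Some estimates changed sign, among them Pdyn at ZT22 (-0.24), Sst at ZT16 (-0.18) and Gal at ZT22 (-0.16). Without the 3 libraries the averaged log2 difference was -0.12 for Kiss1, -0.0025 for Tac2 and -0.016 for Ghrh; Ghrh at ZT4 was -0.11, Th at ZT10 -0.037, Tac2 at ZT22 -0.069, Esr1 at ZT22 -0.040, and r of Kiss1 and Pdyn -0.16. With 1 library left out the averaged difference ran from -0.053 to 0.125 for Kiss1, -0.074 to 0.035 for Sst and -0.059 to 0.025 for Gal. At ZT4 it ran from -0.45 to 0.26 (Kiss1), -0.11 to 0.17 (Ghrh), -0.145 to 0.041 (Sst) and -0.17 to 0.0060 (Gal), and at ZT10 from -0.087 to 0.39 (Kiss1), -0.092 to 0.11 (Tac2) and -0.055 to 0.16 (Th). At ZT16 it ran from -0.16 to 0.085 (Tac2), -0.082 to 0.021 (Pdyn), -0.0089 to 0.25 (Ghrh), -0.30 to 0.0021 (Sst) and -0.15 to 0.050 (Prlr). At ZT22 it ran from -0.15 to 0.13 (Tac2), -0.46 to 0.045 (Pdyn), -0.27 to 0.16 (Sst), -0.33 to 0.012 (Gal), -0.069 to 0.061 (Prlr) and -0.041 to 0.23 (Esr1), and r of Kiss1 and Pdyn from -0.077 to 0.38. Of 460 single values under the settings that left out no single library, 436 kept their side of the threshold and, where they have a sign, their direction. Rhythm amplitudes are never below 0, so their direction could not change. In the main edgeR fit the smallest adjusted p of the genes followed here was 0.195, for the rhythm. A change of side was therefore unlikely from the start in those comparisons, and the count is not a measure of robustness.

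Depth limits Kiss1 most, at 17 counts in its lowest library. With 3 pools per group 1 gene at 1 time cannot reach an exact permutation p under 0.1.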
